A study of Mus musculus with 26 samples.

Results

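The angiopoietins and vascular growth factors examined here are 9 genes: the angiopoietins Angpt1, Angpt2 and Angpt4, the Tie receptors Tek (also called Tie2) and Tie1, and the vascular endothelial growth factor (VEGF) family ligands Vegfa, Vegfb, Vegfc and Pgf. They were chosen by symbol, through the Ensembl gene identifier of each row, and all 9 were found among the 54532 genes of the deposited table. All 9 passed the filter on low counts over the 26 libraries, as did 17173 genes in all. The libraries came from untreated mice at day 0 and fall into 4 groups. Retinal RNA gave 6 immunoprecipitated (IP) libraries, enriched for astrocyte RNA, and 6 input libraries taken without that enrichment. A further 7 IP libraries came from the optic nerve head (ONH), the point at which ganglion cell axons exit the eye. Another 7 came from the optic nerve proper (ONP), the myelinated stretch behind it. The strain, the age, the allele that carries the tag and the promoter that drives it are not given in the sources used here, nor is whether libraries stem from different animals. The p-values therefore measure the spread between these libraries, which may be technical.

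Angiopoietins are secreted ligands of the receptor tyrosine kinase Tek on endothelial cells. Angpt1 activates Tek and steadies vessels, Angpt2 can act against it or with it depending on the setting, and Angpt4 is a further ligand of Tek. Tie1 pairs with Tek and shapes its signalling. Vegfa drives vessel growth and permeability through the receptors Kdr and Flt1, Vegfb and Pgf bind Flt1, and Vegfc acts mainly through Flt4 in lymphatic vessels. In the retina, astrocytes form the template along which the superficial vessels spread after birth, and they are a known source of Vegfa.

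The unit of a level is CPM, a count divided by its library size after TMM scaling and expressed per 1e6 counts, or CPM per kilobase of exon where genes are compared with each other. Differences between groups are log2 fold changes from the fit, with their standard error (SE) and a Benjamini-Hochberg adjusted p from edgeR's quasi-likelihood test over all genes tested. A gene was called at an adjusted p under 0.05. The 12 retinal libraries belong to batch 2, as do replicate 7 of ONH and replicate 7 of ONP, named bridging libraries below because they link the batches. Batch 1 holds the remaining 12 nerve libraries. Comparisons between regions were fitted with a batch term, so their batch part rests on the 2 bridging libraries. A fitted difference can thus depart from the difference between group means. Without both bridging libraries no batch term could be fitted, as retina IP is then all batch 2 and nerve all batch 1. Region and batch cannot be told apart in that setting, so its calls do not check those between retina and nerve.

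Total counts ranged from 11164619 to 27431026 per library. Summed over 10 astrocyte markers, the level was 408.3 to 1661 CPM in input, 1127 to 9036 CPM in retina IP, 5259 to 27110 CPM in ONH and 10390 to 33690 CPM in ONP, and no marker was at 0 in a whole group. Retina IP replicates 2, 3 and 4 lay between 5654 and 9036 CPM in that sum, and replicates 1, 5 and 6 between 1127 and 2164 CPM. The sum over 8 ganglion cell markers ran the other way, from 836.5 to 1884 CPM in replicates 2, 3 and 4 and from 4473 to 4839 CPM in replicates 1, 5 and 6. The bridging ONH library held a rod marker sum of 40420 CPM, against at most 672 CPM in the other ONH libraries. In bulk RNA, fewer cells of a type and less RNA per cell cannot be told apart.

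Retina IP against input asks what the enrichment brought out. Here edgeR called 0 of the 8 members tested, and 0 of 15181 genes in all, so the background share was 0%. At an unadjusted p under 0.05 there were 4 of 8 members (Angpt2, Angpt4 and Vegfa higher in IP, Vegfb lower), against 22.1% of all genes, 11.7% higher and 10.4% lower. DESeq2 called those 4 of 8 members, and 2072 of 15181 genes in all. The edgeR fit of all 26 libraries called the same 4, of 9 members tested, and 2871 of 17173 genes. With limma-voom 0 members and 0 genes were called. Tie1 did not pass the filter of the retinal fit. The members' median log2 fold change was 1.63, and that of all genes tested was 0.02.

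Retina IP against ONH called 4 of the 9 members, where 33.8% of all 16355 genes tested were called. Angpt4 and Vegfa were higher in retina, 2 of 9 against a background of 12.7%, and Angpt1 and Tek were lower, 2 of 9 against 21.1%. Retina IP against ONP called the same 4 members in the same directions, against 32.8% of all genes, 12.9% higher and 19.9% lower. Both comparisons use the same retina IP libraries, so they do not check each other. The members' median log2 fold change was -0.43 against ONH and 0.04 against ONP, beside -0.13 and -0.10 for all genes tested. ONH against ONP called 0 of the 9 members with edgeR and with DESeq2, where edgeR called 7.48% of all genes, 4.43% higher in ONH and 3.04% lower. At an unadjusted p under 0.05 there were 2 members, Angpt4 and Pgf, both with higher estimates in ONH, against 23.3% of all genes, 12.6% in that direction.

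**Figure D1:**
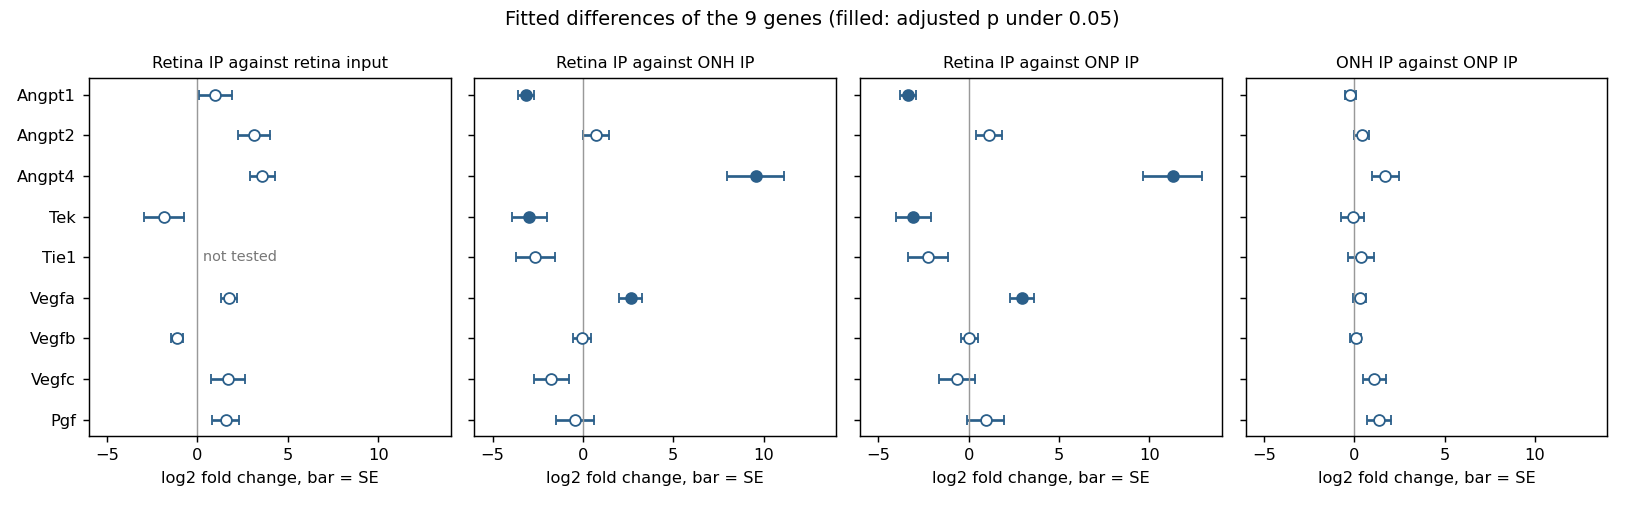
Fitted log2 fold change (horizontal axis) of each member gene in the 4 comparisons, with the SE as a bar and filled points for an adjusted p under 0.05. Angpt4 stands farthest to the right against both nerve regions (9.55 and 11.28), Angpt1 and Tek lie to the left, and no point is filled in retina IP against input or in ONH against ONP.

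Angpt4 (ENSMUSG00000027460, mm10 chr2:151911210-151945337, plus strand) was the most abundant member in the retinal IP libraries and the least abundant in the nerve. Over the 12 retinal libraries its transcript level had a Pearson's r of 0.918 with that of Vegfa. These pool IP with input, and both genes were higher in every IP library than in every input library. Over the 14 nerve libraries r was 0.094. Angpt4 held only 4 to 69 counts per ONH library and 2 to 10 per ONP library, so that low value says little. The 250 bases before the RefSeq start of both genes are shown, 5′ to 3′ on the gene's own strand (GRCm38.p6, the build also called mm10). Capitals mark ACGTG and GCGTG on either strand, the letters at the core of sites bound by hypoxia-inducible factors, and TATAAA. The Angpt4 window is chr2:151910957-151911206 on the plus strand, and the Vegfa window is chr17:46032378-46032627 on the minus strand.
Angpt4: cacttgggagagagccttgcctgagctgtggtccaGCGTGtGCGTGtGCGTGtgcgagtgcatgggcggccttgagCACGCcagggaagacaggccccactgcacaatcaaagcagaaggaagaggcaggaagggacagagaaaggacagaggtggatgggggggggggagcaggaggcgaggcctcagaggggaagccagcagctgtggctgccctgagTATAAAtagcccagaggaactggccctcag
Vegfa: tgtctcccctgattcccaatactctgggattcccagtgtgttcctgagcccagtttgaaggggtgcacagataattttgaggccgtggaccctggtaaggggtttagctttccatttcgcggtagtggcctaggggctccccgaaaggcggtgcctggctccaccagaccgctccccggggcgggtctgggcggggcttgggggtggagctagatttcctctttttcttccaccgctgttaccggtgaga
The Angpt4 window held 4 matches to ACGTG or GCGTG, 3 of them GCGTG in a row and 1 as its reverse complement, and 1 TATAAA whose first base lies 30 bases before the start. The Vegfa window shown held 0 matches to either motif. A second RefSeq window of Vegfa, at chr17:46025164-46025413 and so inside the annotated gene, held 2. Of 32851 RefSeq windows of this length, 38.6% held ACGTG or GCGTG, 2.51% held 4 or more matches, and 12.4% held TATAAA. These are letters in a window, and no binding was measured. Windows were matched for 7 of the 9 members, and Pgf also had a second window at another start.

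In the input libraries Angpt4 ranged from 13.5 to 48.2 CPM with a median of 27.8 CPM. The retina IP libraries ranged from 54 to 679 CPM with a median of 292 CPM. Every IP library was above every input library, and the group means were 320.4 ± 278 CPM in IP and 28.8 ± 13.6 CPM in input (SD, n = 6 each), a ratio of 11.1. Replicates 2, 3 and 4 held 679, 543 and 478 CPM, and replicates 1, 5 and 6 held 105, 54 and 63.7 CPM, so the 3 libraries with the higher astrocyte marker sums were also the 3 with more Angpt4, though the order within each set of 3 differed. The sum over 6 markers of Müller glia, the radial glia of the retina, split in the same way, at 5926, 7345 and 6668 CPM in replicates 2, 3 and 4 and 2423, 2284 and 3960 CPM in replicates 1, 5 and 6. The fitted log2 fold change over input was 3.60 (SE 0.679), which edgeR did not call (adjusted p = 0.057). Without IP replicate 1 edgeR called it (3.79, adjusted p = 0.0322), and without IP replicate 5 as well (3.83, adjusted p = 0.0395).

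In the optic nerve Angpt4 was close to the limit of counting. ONH libraries ranged from 0.182 to 2.62 CPM (median 0.862 CPM), which is 4 to 69 counts per library and 161 counts in all 7. ONP libraries ranged from 0.111 to 0.732 CPM (median 0.316 CPM), or 2 to 10 counts and 37 in all. The lowest retina IP library exceeded the highest nerve library in both comparisons, and the ratio of means was 298 over ONH and 973 over ONP. The fit gave a log2 fold change of 9.55 against ONH (SE 1.57, adjusted p = 0.00014) and 11.28 against ONP (SE 1.61, adjusted p = 2.55e-05). Few counts stand behind the nerve side of these folds: the bridging libraries, which set the batch part, held 4 and 5 counts. Leaving out both bridging libraries, which makes region and batch coincide, gave 8.03 (adjusted p = 1.24e-07) and 10.03 (adjusted p = 2.97e-08). Within batch 2 alone, where each nerve group has 1 library that is assumed to vary like the retinal ones, the values were 10.93 (adjusted p = 0.0697) and 10 (adjusted p = 0.0532) and edgeR made no call.

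Markers of other retinal cells differed between retina IP and nerve IP in both directions. For Müller glia, 2 of 6 markers were called higher against ONH and 4 of 6 against ONP. Their sum ranged from 2284 to 7345 CPM in retina IP, from 797.6 to 1882 CPM in ONH and from 474.2 to 1040 CPM in ONP. All 8 ganglion cell markers were called higher in both comparisons, with sums of 836.5 to 4839 CPM, 20.2 to 202.8 CPM and 12.7 to 37.6 CPM. Amacrine cell markers were called higher in 2 of 5 cases in both comparisons. Rod markers were called lower in 8 of 8 cases against ONH and in 0 of 8 against ONP. Their sum was 558.9 to 2280 CPM in retina IP, 36 to 672 CPM in batch 1 ONH and 40420 CPM in the bridging ONH library. Bipolar cell markers were called lower in 2 of 5 cases against ONH and higher in 3 of 5 against ONP. Their sum was 26.45 to 71.85 CPM in retina IP, 5.2 to 24.25 CPM in batch 1 ONH and 250.7 CPM in the bridging ONH library. ONP sums were 3.95 to 538.7 CPM for rods and 0 to 2.71 CPM for bipolar cells. For horizontal cells, 1 of 3 tested markers was called lower in both. The part of these cell types in the Angpt4 and Vegfa results was not tested. In the input libraries the ganglion cell sum was 3533 to 8700 CPM, and the Müller glia sum was 1275 to 2463 CPM in 5 libraries and 5766 CPM in replicate 2. The bridging ONH library, the one rich in rod transcripts, held Angpt4 at 0.182 CPM.

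**Figure D2:**
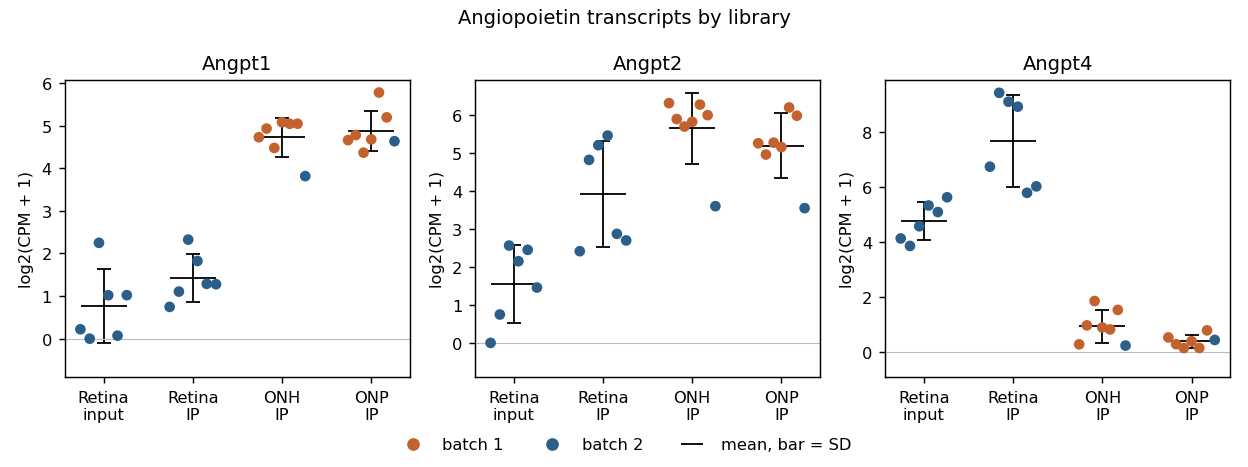
Level of the 3 angiopoietins in each of the 26 libraries as log2(CPM + 1), coloured by batch, with the mean and SD of each group as bars. Angpt4 lies higher in all 6 retina IP libraries than in any other, Angpt1 is higher in all 14 nerve libraries than in any retinal one, and the bridging libraries are the lowest nerve points for Angpt2.

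Angpt1 (ENSMUSG00000022309, mm10 chr15:42424723-42676977, minus strand) showed the opposite pattern, abundant in the nerve and scarce in the retina. Input libraries ranged from 0 to 3.75 CPM (median 0.597 CPM) and retina IP libraries from 0.677 to 4.01 CPM (median 1.43 CPM). ONH libraries ranged from 13.1 to 32.8 CPM (median 29.5 CPM), and ONP libraries from 19.6 to 53.9 CPM (median 24.6 CPM). No retinal library reached the level of any nerve library, and the means were 1.87 ± 1.21 CPM in retina IP (SD, n = 6), 26.6 ± 7.28 CPM in ONH and 29.8 ± 11.7 CPM in ONP (SD, n = 7 each). Retina IP was lower than ONH by a log2 fold change of -3.15 (SE 0.453, adjusted p = 3.5e-05) and than ONP by -3.36 (SE 0.435, adjusted p = 8.05e-06). Within batch 2 alone the ONH value was -2.62 and was not called (adjusted p = 0.11).

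The 2 nerve regions overlapped for Angpt1, with a fitted difference of -0.21 (95% interval -0.79 to 0.37, adjusted p = 0.729). IP and input overlapped as well (0.99, SE 0.917, adjusted p = 0.586). Angpt1 shares 737 bases with the antisense gene Gm17473, which held at most 2.96 CPM in any library. Whether counting used strand is not given in the sources used here, so reads of the shared stretch cannot be told apart. Cell types other than astrocytes also differed between retina and nerve: 6 of 6 oligodendrocyte markers were called lower in retina IP in both comparisons, with sums of 49.7 to 146.9 CPM in retina IP, 24470 to 65600 CPM in ONH and 32140 to 110400 CPM in ONP. Microglia markers were called lower in 5 of 6 cases against ONH and 6 of 6 against ONP, with sums of 43.8 to 117.3 CPM, 165.6 to 1542 CPM and 215.2 to 2184 CPM. Of 7 pericyte and smooth muscle markers tested, 5 were called lower and 1 higher against ONH, and 4 lower and 1 higher against ONP. Their sum was nonetheless 120.8 to 833.9 CPM in retina IP, 83.2 to 254.6 CPM in ONH and 83.7 to 121.5 CPM in ONP. That sum includes Rgs5, the marker called higher in both (log2 fold change 3.51 and 4.57). Of 6 fibroblast markers, 5 were called lower and 1 higher in both comparisons, with overlapping sums of 152.7 to 1417 CPM, 442.2 to 1095 CPM and 194.4 to 1068 CPM. These sums include Pdgfra, the marker called higher (4.84 and 3.94). Col3a1, called lower, ranged from 0 to 0.453 CPM in retina IP, 20.1 to 128.1 CPM in ONH and 8.05 to 162 CPM in ONP. The part of these cell types in the Angpt1 result was not tested.

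Angpt2 (ENSMUSG00000031465, mm10 chr8:18690263-18741562, minus strand) ranged from 0 to 4.92 CPM in input (median 2.6 CPM) and from 4.34 to 43.2 CPM in retina IP (median 16.9 CPM). It ranged from 11.2 to 79.1 CPM in ONH (median 58.9 CPM) and from 10.7 to 72.9 CPM in ONP (median 37.4 CPM). Retina IP exceeded the highest input library in 5 of 6 libraries, and replicates 2, 3 and 4 held 27.4, 36.1 and 43.2 CPM, again above the other 3, which held 4.34 to 6.34 CPM. The fitted log2 fold change over input was 3.12 (SE 0.869) and edgeR did not call it (adjusted p = 0.0701), whereas DESeq2 did (3.11, adjusted p = 0.00307).

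Against the nerve, the direction of Angpt2 turned with the handling of batch. The mean was 20.5 ± 17.3 CPM in retina IP (SD, n = 6), 56.6 ± 22.6 CPM in ONH and 41 ± 20.7 CPM in ONP (SD, n = 7 each), but the bridging libraries held 11.2 and 10.7 CPM, below every batch 1 library. With the batch term the fitted difference was 0.71 against ONH (SE 0.708, adjusted p = 0.465) and 1.13 against ONP (SE 0.712, adjusted p = 0.241), and neither was called. Without a batch term it was -1.44 (adjusted p = 0.0308) and -0.98 (adjusted p = 0.127), and without the bridging libraries -1.61 (adjusted p = 0.00669) and -1.14 (adjusted p = 0.0431). The sign of the Angpt2 difference thus depended on whether and how batch entered the fit. ONH and ONP overlapped (0.42, 95% interval -0.40 to 1.24, adjusted p = 0.598). Angpt2 lies inside Mcph1, which runs on the opposite strand and held at most 10.3 CPM in any library.

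Per kilobase of exon, the angiopoietin that made up most of the family differed between retina and nerve. Angpt4 accounted for 92.1% to 97.4% of the summed level of the 3 angiopoietins in retina IP and for 82.5% to 99.6% in input, and for 0.355% to 5.88% in ONH and 0.159% to 2.02% in ONP. Angpt2 made up 53.9% to 81.1% in ONH and 38% to 72.9% in ONP, and Angpt1 most of the rest. The ranges of the Angpt4 share in retina and nerve did not overlap. Angpt2 was above Angpt1 per kilobase in 7 of 7 ONH and 6 of 7 ONP libraries, the exception being the bridging ONP library.

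**Figure D3:**
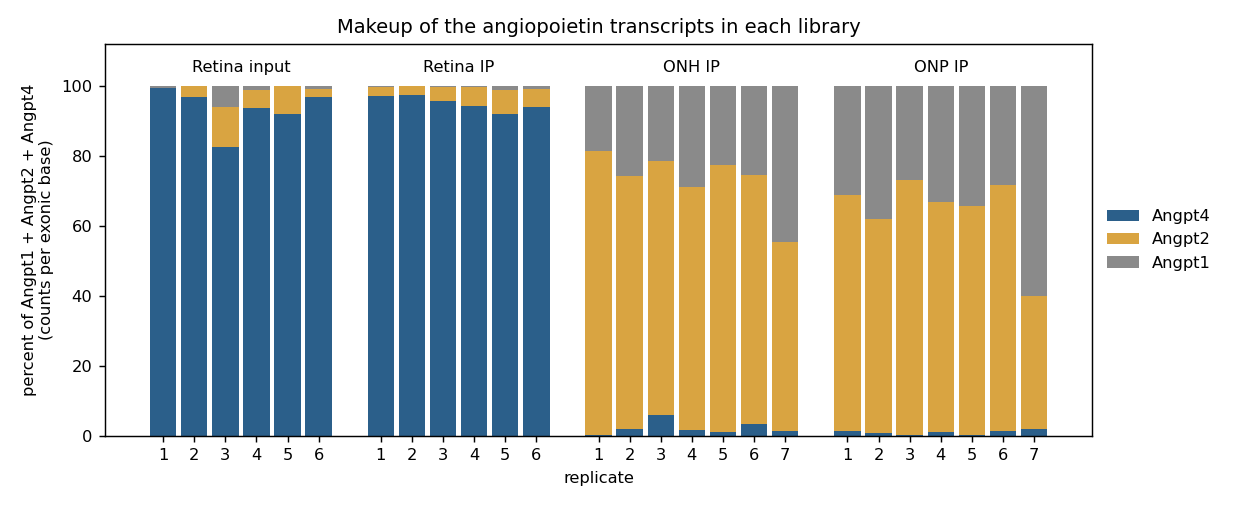
Share of Angpt1, Angpt2 and Angpt4 in their summed level (percent, counts per exonic base) for each library, ordered by group and replicate number. Angpt4 fills at least 82.5% of every retinal bar and at most 5.88% of every nerve bar, where Angpt2 and Angpt1 take its place.

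Vegfa (ENSMUSG00000023951, mm10 chr17:46016993-46032369, minus strand), the main vessel growth factor of the set, was higher in retina IP than in nerve IP. Input libraries ranged from 21.5 to 53.6 CPM (median 43 CPM) and retina IP libraries from 54.7 to 249.1 CPM (median 89.6 CPM). ONH libraries ranged from 11.2 to 25.3 CPM (median 16.5 CPM), and ONP libraries from 7.59 to 20.5 CPM (median 13.8 CPM). All 6 retina IP libraries lay above every library of the other groups, although the lowest, at 54.7 CPM, was only just above the highest input library at 53.6 CPM. Replicates 2, 3 and 4 held 239, 117 and 249.1 CPM, and the other 3 held 54.7 to 62.5 CPM.

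The mean of Vegfa in retina IP, 130 ± 91.2 CPM (SD, n = 6), was 3.13 times that of input, 7.04 times that of ONH and 8.86 times that of ONP. Over input the log2 fold change was 1.77 (SE 0.446, adjusted p = 0.0655) and was not called by edgeR. Without IP replicate 1 it was called (1.92, adjusted p = 0.0427), and without IP replicate 5 as well (1.93, adjusted p = 0.0477). Retina IP was higher than ONH by 2.63 (SE 0.644, adjusted p = 0.0039) and than ONP by 2.94 (SE 0.67, adjusted p = 0.00223). Both calls were lost without the bridging ONP library (2.37, adjusted p = 0.0643, and 2.59, adjusted p = 0.0765) and within batch 2 alone (2.56, adjusted p = 0.262, and 3.45, adjusted p = 0.116), and the ONH call was lost with only the groups compared (2.42, adjusted p = 0.0999). Counts per gene do not separate the splice forms of Vegfa, which differ in how they bind matrix.

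Vegfb (ENSMUSG00000024962, mm10 chr19:6982473-6987651, minus strand), a ligand of Flt1 tied to fatty acid handling and cell survival, had the lowest level in retina IP relative to input of the 4 VEGF ligands examined here. Input libraries ranged from 23.2 to 93.1 CPM (median 32.6 CPM) and retina IP libraries from 15.6 to 22.1 CPM (median 19.6 CPM). Every IP library was below every input library, and input replicates 1 and 2 were the highest at 93.1 and 65.6 CPM. The log2 fold change was -1.14 (SE 0.334) and edgeR did not call it (adjusted p = 0.0751). DESeq2 called it (-1.26, adjusted p = 0.0106), and without input replicates 1 and 2 the edgeR value was -0.53 (adjusted p = 0.107). Levels in the nerve overlapped those in retina IP, at 6.29 to 25 CPM in ONH and 5.78 to 25.1 CPM in ONP. The differences from retina IP were -0.05 (95% interval -1.01 to 0.91, adjusted p = 0.952) and 0.04 (-0.87 to 0.95, adjusted p = 0.962).

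Vegfc (ENSMUSG00000031520, mm10 chr8:54077606-54187096, plus strand), the lymphatic growth factor, was low in the retina. It ranged from 0 to 1.03 CPM in input, from 0 to 2.24 CPM in retina IP, from 0.239 to 8.87 CPM in ONH and from 1.2 to 3.3 CPM in ONP, with medians of 0.165, 0.981, 3.72 and 1.64 CPM. All neighbouring groups overlapped, although 5 of 7 ONH libraries lay above the highest ONP library. Vegfc had a log2 fold change of -1.75 in retina IP against ONH (SE 0.952, adjusted p = 0.162) and of 1.11 in ONH against ONP (SE 0.634, adjusted p = 0.309), and neither was called. Without both bridging libraries the first was called (-1.91, adjusted p = 0.0288).

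Pgf (ENSMUSG00000004791, mm10 chr12:85166635-85177790, minus strand), the placental growth factor that binds Flt1, was variable within every group. It ranged from 0.705 to 4.21 CPM in input (median 2.48 CPM), from 0.214 to 11.9 CPM in retina IP (median 7.72 CPM), from 3.83 to 30 CPM in ONH (median 5.88 CPM) and from 1.64 to 8.94 CPM in ONP (median 3.44 CPM). Retina IP replicates 2, 3 and 4 held 11.2 to 11.9 CPM and the other 3 at most 4.21 CPM, the same split as in Angpt4, Angpt2 and Vegfa. In ONH, 3 of 7 libraries, replicates 1, 2 and 3, exceeded the highest ONP library. ONH against ONP gave 1.38 (SE 0.65, adjusted p = 0.207), which was not called. Within batch 1 alone Pgf was called higher in ONH (1.61, adjusted p = 0.0469), as was Angpt4 at its low counts (1.94, adjusted p = 0.0465, against 1.72 and 0.176 in all IP libraries).

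**Figure D4:**
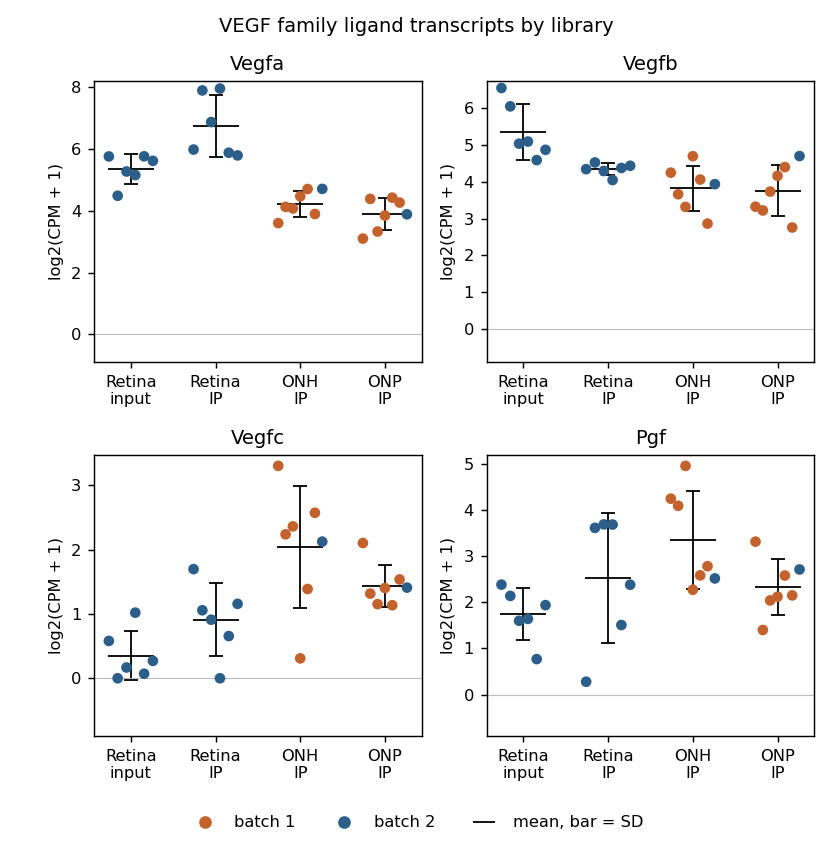
Level of the 4 VEGF family ligands in each of the 26 libraries as log2(CPM + 1), coloured by batch, with the mean and SD of each group as bars. The 6 retina IP libraries lie highest for Vegfa, the 6 input libraries lie above retina IP for Vegfb, and the groups overlap for Pgf and, between neighbouring groups, for Vegfc.

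Tek (ENSMUSG00000006386, mm10 chr4:94739289-94874976, plus strand), the receptor of the angiopoietins, was scarce in retina IP. Its levels ranged from 0.0826 to 9.98 CPM in input (median 0.475 CPM), from 0.0349 to 1.75 CPM in retina IP (median 0.58 CPM), from 0.281 to 21.3 CPM in ONH (median 11.2 CPM) and from 2.43 to 18.8 CPM in ONP (median 11 CPM). All 6 retina IP libraries were below every ONP library, and below every ONH library but replicate 5. The log2 fold change was -2.97 against ONH (SE 0.966, adjusted p = 0.0225) and -3.05 against ONP (SE 0.961, adjusted p = 0.0195). Both calls were lost without the bridging ONP library (-2.91, adjusted p = 0.082, and -2.97, adjusted p = 0.17), and the ONH call without the bridging ONH library (-3.06, adjusted p = 0.105). They were also lost with limma-voom (adjusted p = 0.0846 and 0.081), in the fit of all 26 libraries (0.0819 and 0.0709), with the replicate block (0.112 and 0.0797) and within batch 2 alone (0.255 and 0.156). With only the groups compared, the ONH call was lost (0.139). Without both bridging libraries, where region and batch coincide, the values were -4.10 and -4.16 (adjusted p = 0.000275 and 0.000234).

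Tie1 (ENSMUSG00000033191, mm10 chr4:118471191-118490061, minus strand), the partner receptor, followed a like pattern without being called. It ranged from 0.0503 to 5.32 CPM in input (median 0.412 CPM), from 0.0489 to 2.09 CPM in retina IP (median 0.289 CPM), from 0.703 to 25.3 CPM in ONH (median 10.5 CPM) and from 2.47 to 17.8 CPM in ONP (median 10.2 CPM). Retina IP lay below every ONP library and overlapped ONH only through ONH replicate 5. Its log2 fold change was -2.63 against ONH (SE 1.09, adjusted p = 0.069) and -2.25 against ONP (SE 1.12, adjusted p = 0.132). Without both bridging libraries, where region and batch coincide, it was called in both (-4.15, adjusted p = 0.00077, and -3.79, adjusted p = 0.00147). Against ONH it was also called without ONH replicate 5 (adjusted p = 0.0401) or without retina IP replicate 4 (0.0303) or 6 (0.0479).

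Endothelial markers moved with both receptors. Of 11 endothelial markers tested, 8 were called lower in retina IP than in ONH and 7 lower than in ONP, and none was called higher. Their sum over the libraries ranged from 22.2 to 109.6 CPM in input, from 13.2 to 43.5 CPM in retina IP, from 28.6 to 397.8 CPM in ONH and from 37.6 to 234.5 CPM in ONP. ONH replicate 5 and ONP replicate 5, the lowest nerve libraries for Tek and Tie1, were also the lowest in this sum. Among the defining markers, Pecam1 ranged from 0 to 2.64 CPM and Cdh5 from 0 to 0.149 CPM in retina IP, while in ONH they ranged from 0.773 to 17.5 CPM and from 0.574 to 3.57 CPM. No endothelial marker was at 0 in every library of a group. The part of endothelial RNA in the Tek and Tie1 results was not tested.

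The other receptors of the pathway differed in direction. Of the 5 VEGF receptors and co-receptors tested, 0 were called against ONH, and against ONP 1 was called higher in retina IP and 1 lower. Kdr, the main signalling receptor for Vegfa, ranged from 37.2 to 166.7 CPM in retina IP, from 17.6 to 176.1 CPM in input, from 2.25 to 49.8 CPM in ONH and from 1.35 to 14.7 CPM in ONP. It was higher in retina IP than in ONP (3.06, SE 1.06, adjusted p = 0.0323) with no overlap of the libraries, a call that was lost without either bridging library (adjusted p = 0.0952 without that of ONH, 0.263 without that of ONP), in batch 2 alone (0.0677) and with only the groups compared (0.0547). Against ONH it was not called (1.62, SE 0.952, adjusted p = 0.196), but was without both bridging libraries (2.13, adjusted p = 0.0071).

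Flt1, which binds Vegfa, Vegfb and Pgf and often acts as a decoy, ranged from 5.33 to 72.5 CPM in retina IP and was not called against either nerve region (0.64, adjusted p = 0.602, and 0.90, adjusted p = 0.457). Without both bridging libraries the ONP value was called (1.43, adjusted p = 0.043). Flt4, the receptor of Vegfc, stayed between 0 and 3.64 CPM in all libraries and was not called in the main fits. All 6 retina IP libraries lay above every ONP library for Flt4, and it was called against ONP in 2 of 30 alternative settings. The neuropilins are co-receptors that also serve semaphorins. Nrp2 had negative estimates against both nerve regions, as Tek and Tie1 did, and all 6 retina IP libraries (1.54 to 16.1 CPM) lay below every library of ONH (22.7 to 52.1 CPM) and ONP (26.8 to 61 CPM). It was lower than in ONP (-1.77, SE 0.578, adjusted p = 0.0236), a call lost without the bridging ONP library (0.281), with the replicate block (0.0717), with only the groups compared (0.0772) and in batch 2 alone (0.267). Against ONH Nrp2 was not called (-1.40, adjusted p = 0.0775), but was with limma-voom (-1.86, adjusted p = 0.018) and without both bridging libraries (-1.75, adjusted p = 0.0024). Nrp1 was not called against ONH (-0.89, adjusted p = 0.136) or ONP (-0.16, adjusted p = 0.825). Without both bridging libraries it was called lower in both (-1.89, adjusted p = 6.72e-05, and -1.09, adjusted p = 0.00658), with no batch term as well (-1.77 and -1.01), and against ONH also without retina IP replicate 6 (-1.14, adjusted p = 0.0361). Ptprb, the phosphatase that dampens Tek, was not called either (-1.56, adjusted p = 0.247, and -1.95, adjusted p = 0.143). It was called lower in both without both bridging libraries (-1.97, adjusted p = 0.0342, and -2.33, adjusted p = 0.0151), and against ONP also without retina IP replicate 4 (-2.57, adjusted p = 0.044).

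**Figure D5:**
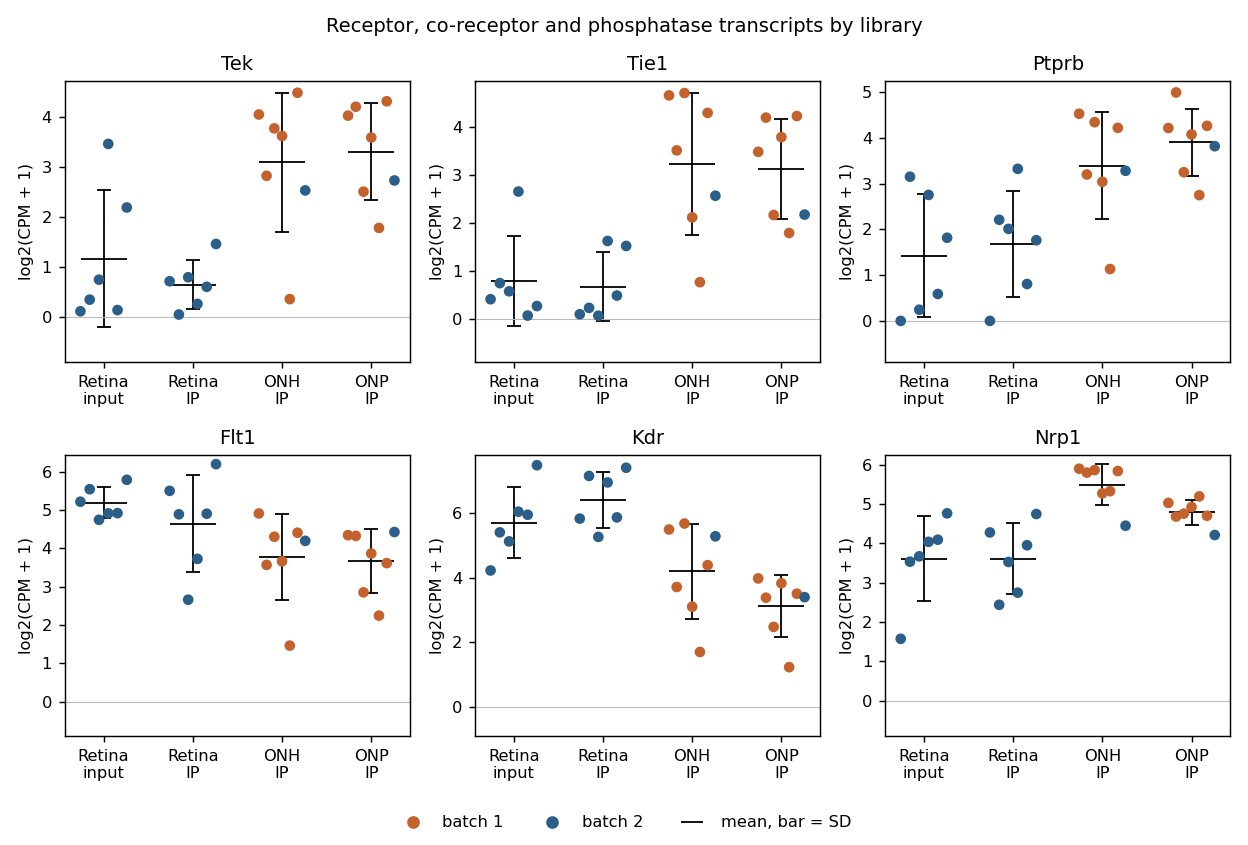
Level of the Tie receptors, the Tek phosphatase Ptprb, and the VEGF receptors Flt1 and Kdr with the co-receptor Nrp1 in each of the 26 libraries as log2(CPM + 1), coloured by batch, with the mean and SD of each group as bars. Tek and Tie1 sit low in the retinal groups and higher in most nerve libraries, whereas Kdr sits higher in retina than in ONP.

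Among 9 tested partners and relatives of the angiopoietin system, 1 was called higher and 4 lower in retina IP than in ONH, and 0 higher and 3 lower than in ONP. Foxo1, a transcription factor restrained by Tek signalling and active in many cell types, was lower in both (-2.32, adjusted p = 9.31e-05, and -2.13, adjusted p = 0.00013), at 5.73 to 19.7 CPM in retina IP, 48.8 to 74.4 CPM in ONH and 35.5 to 70 CPM in ONP. Both Foxo1 calls were lost in batch 2 alone (adjusted p = 0.133 and 0.0539). Svep1, a matrix protein that binds Tie1, was lower in both (-3.86, adjusted p = 0.04, and -4.79, adjusted p = 0.0188) at no more than 0.518 CPM in retina IP. Both calls were lost without either bridging library (adjusted p from 0.0638 to 0.304), and in other settings as well. In all, the ONH call on Svep1 was lost in 12 of 29 settings and the ONP call in 4 of 30. The angiopoietin-like genes encode secreted proteins named for their related structure. Angptl7 was lower in retina IP in both (-3.19, adjusted p = 0.027, and -3.12, adjusted p = 0.036), and both calls were lost without either bridging library (adjusted p from 0.0673 to 0.178). In all, the ONH call on Angptl7 was lost in 5 of 30 settings and the ONP call in 8 of 30. Angptl2 was lower than in ONH (-2.03, adjusted p = 0.00463) and higher in ONH than in ONP (1.39, adjusted p = 0.0195). The first call on Angptl2 was lost without the bridging ONH library (adjusted p = 0.0844), with the replicate block (0.0794) and in batch 2 alone (0.133), and the second with all 26 libraries (0.0884) and with no batch term (0.052). Against ONP, Angptl2 was called lower in retina IP only without both bridging libraries (-2.31, adjusted p = 6.55e-05) or with no batch term (-2.16). Angptl1 was higher than in ONH at 2.30 (adjusted p = 0.0483), a call lost in 20 of the settings tried.

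Of 8 oxygen-sensing genes tested, 2 were called higher and 1 lower in retina IP than in ONH, and the same counts held against ONP. Epas1, which encodes the hypoxia-inducible factor subunit HIF-2 alpha, ranged from 144.3 to 893.1 CPM in retina IP, 38 to 54 CPM in ONH and 29 to 65.6 CPM in ONP. It was higher by 3.01 (SE 0.679, adjusted p = 0.00216) and 2.94 (SE 0.682, adjusted p = 0.00255), and over input it was not called (1.77, adjusted p = 0.0754). Both Epas1 calls were lost with only the groups compared (adjusted p = 0.0833 and 0.0608) and in batch 2 alone (0.268 and 0.187), and the ONP call without the bridging ONP library (2.79, adjusted p = 0.0674). Hif1a, the other oxygen-regulated subunit, ranged from 248.8 to 368.1 CPM in retina IP and was higher by 1.44 in both comparisons (adjusted p = 0.0199 and 0.0361). Without the bridging ONP library that fell to 0.64 (adjusted p = 0.198) and 0.29 (adjusted p = 0.672), and the bridging ONH library held 199.5 CPM against 20.3 to 41.6 CPM in the other ONH libraries. In all, the Hif1a call against ONH was lost in 5 of 30 settings and that against ONP in 3 of 30. Egln1, the enzyme that marks these subunits for removal, was lower (-1.32, adjusted p = 0.00243, and -1.03, adjusted p = 0.00971). Without the bridging ONP library those values were -0.87 (adjusted p = 0.0903) and -0.44 (adjusted p = 0.548). In all, the Egln1 call against ONH was lost in 3 of 30 settings and that against ONP in 4 of 30.

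Ranked per kilobase of exon, retina IP held Angpt4 first (mean 137 CPM per kilobase), then Vegfa (30.3), Vegfb (12.1), Angpt2 (5.55) and Pgf (2.37), with Vegfc, Angpt1, Tie1 and Tek each under 1 CPM per kilobase. Neighbours in that order overlapped in their ranges over libraries, but within each library Angpt4 exceeded both Vegfa and Vegfb in 6 of 6. Input held Vegfb first (28.6), then Angpt4 (12.3) and Vegfa (9.7). In ONH the order was Angpt2 (15.4), Vegfb (8.92), Angpt1 (5.11), Vegfa (4.31), Pgf (4.11), Tie1 (2.55), Tek (2.18), Vegfc (1.57) and Angpt4 (0.46). All neighbours in the ONH order overlapped in their ranges. ONP began with Angpt2 (11.1), Vegfb (8.7), Angpt1 (5.72) and Vegfa (3.42). It ended with Vegfc (0.724) and Angpt4 (0.141), the only ONP neighbours whose ranges did not overlap. Angpt2 was not first in either bridging library. In that of ONH, Vegfb (8.94) and Vegfa (5.89) exceeded Angpt2 (3.03). In that of ONP, Vegfb (15.6), Angpt1 (4.58) and Vegfa (3.23) exceeded Angpt2 (2.91).

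The genes whose levels over the 26 libraries followed each member most closely were ranked by Pearson's r of log2(CPM + 1), a description in which the libraries share batch and region. For Angpt4 they were Slmap (r = 0.967), which encodes a membrane-anchored protein of muscle and other cells, the atypical chemokine receptor gene Ackr2 (0.962) and the ion pump regulator gene Fxyd6 (0.959). Within the 12 retinal libraries, which pool IP with input, those values were 0.934, 0.907 and 0.819. Within the 14 nerve libraries, where Angpt4 was close to the limit of counting, they were 0.004, -0.061 and 0.256. For Vegfa they were Optc (0.944), Slmap (0.933) and Angpt4 itself (0.924, and 0.918 within retina, 0.094 within nerve). For Angpt2 they were Slc22a5 (0.970), Vangl1 (0.969) and Tapbp (0.964), which held within retina (0.956 to 0.960) and within nerve (0.879 to 0.949). Angpt1 was followed by Cfap45, Rab31 and Fam167a (0.967 to 0.972). Tek was followed by Acvrl1 (0.922), Tie1 (0.905) and Tnfrsf1b (0.902), and Tie1 by Sox18 (0.945), Pecam1 (0.940) and Acvrl1 (0.932), of which Acvrl1, Sox18 and Pecam1 are known for their roles in endothelial cells. Vegfb was followed by Camk2n1, Bola3 and Cib2 (0.876 to 0.890), and Pgf by Acaa2, Lsp1 and Ninj1 (0.776 to 0.808).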

How the data were processed

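RNA was measured in 26 mouse libraries. Per the labels, poly(A) RNA was captured and amplified with an ultra-low input kit. Per the submitters' processing notes, the authors quantified reads with Salmon 1.6.0 on mm10, and the deposited table holds their estimated count per gene. Whether counting used strand is not given in the sources used here. These counts are whole numbers as deposited. Symbols were matched for 54409 of 54532 genes, and positions came from GENCODE M21. All columns matched a sample.

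Tests were run in R 4.3.3 with edgeR 4.0.16 (TMM size factors, low counts removed by filterByExpr at 10 per library and 15 in total, quasi-likelihood F test), and were tested on simulated data. Retina IP against input was fitted on 12 libraries, and the regional comparisons on 20 IP libraries with a batch term. Alternatives were RLE size factors, no filter, DESeq2 1.42.0, limma-voom (limma 3.58.1), a fit to all 26 libraries, leaving out the batch term, a fit within 1 batch, a replicate block, a fit to the compared groups alone, and each library left out. Leaving out input replicates 1 and 2, or both bridging libraries, was chosen after seeing the data. The latter was fitted with no batch term. The members and lists were chosen with earlier results of these data known. Named genes were every member, up to 3 called genes per direction of each pathway list, 6 receptors and phosphatases, a few markers, and the 3 genes most like each member with at least 5 CPM in its highest group, ranked among genes with a mean of at least 5 CPM. Angptl2 against ONH falls outside that rule and was named after its values were seen. ONH and ONP libraries of the same replicate number deviated together in 6 of 6 pairs (correlation 0.215 to 0.590). The main fit of ONH against ONP did not use this pairing, which entered only with the replicate block.

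Promoter windows came from RefSeq (GRCm38.p6). Figures were drawn with matplotlib 3.10.9.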

Additional observations from a re-analysis of the deposited data

Results flagged for a closer look

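Among 36 sets of libraries checked (a member in a group), 5 held 1 library far from the rest by Dixon's test, and chance gives about 1 in 20. Angpt1 was 3.75 CPM in input replicate 3, with the next highest input library at 1.03 CPM. Angpt2 was 11.2 CPM in ONH replicate 7, the bridging library, with the next lowest ONH library at 51.2 CPM. Tek was 9.98 CPM and Tie1 5.32 CPM in input replicate 4, against at most 3.55 CPM and 0.68 CPM in the other input libraries, and this library also had the highest endothelial marker sum of the input libraries, 109.6 CPM. Vegfc was 3.3 CPM in ONP replicate 1, with the next highest ONP library at 1.9 CPM.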

How the results depend on the processing

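Apart from the calls below, the direction of Angpt1, Angpt4, Tek and Vegfa was kept in every comparison with the retina under every alternative run. Members called in retina IP against input numbered 0, and 1 with no low-count filter, 4 with DESeq2, 4 with all 26 libraries and 0 to 2 with each library left out. Genes called there numbered 0, and 193 with no filter, 2072 with DESeq2, 2871 with all 26 libraries, 49 without input replicates 1 and 2, and 0 to 381 with each library left out. Against ONH, 4 members and 5532 genes were called, and with no batch term 7 and 8465, with only the groups compared 2 and 2069, in batch 2 alone 0 and 771, and without both bridging libraries 7 and 9420. All 26 libraries gave 3596 genes, and leaving out each library gave 2 to 5 members and 2984 to 6027 genes, both lowest without ONP replicate 7. Against ONP, 4 members and 5371 genes became 1 and 1700 in batch 2 alone, 8851 genes with no batch term, 9444 without both bridging libraries, and 2 to 4 members and 2155 to 5741 genes with each library left out, again lowest without ONP replicate 7. ONH against ONP called 0 members and 1223 genes, and 2 and 2445 in batch 1 alone, with 2041 genes by DESeq2, 511 with all 26 libraries, 2294 with only the groups compared, and 0 members and 601 to 1566 genes with each library left out. The cause of these shifts was not tested.

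Angpt2 changed sign with no batch term (-1.44 against ONH, -0.98 against ONP) and without both bridging libraries (-1.61 and -1.14), from 0.71 and 1.13. The other values that changed sign were not called. Vegfb against ONH (-0.05) was 0.01 with no filter, 0.13 with limma-voom, 0.09 with the replicate block, 0.47 with no batch term, 0.48 with only the groups compared, 0.60 in batch 2 alone, 0.48 without both bridging libraries and -0.56 to 0.44 with each library left out. Against ONP (0.04) it was -0.31 with only the groups compared, -0.18 in batch 2 alone and -0.33 to 0.67 with each left out, and between ONH and ONP (0.09) -0.05 with limma-voom and -0.14 to 0.26. Pgf against ONH (-0.43) was 0.59 with only the groups compared, 0.74 in batch 2 alone and -1.28 to 0.55 with each left out. Over input, Nrp1 (0.01) was -0.07 with RLE and DESeq2, 0.00 with limma-voom, -0.05 with all 26 libraries, -0.01 with the block, -0.37 without input replicates 1 and 2 and -0.27 to 0.30 with each left out. Nrp2 (0.14) was -0.12 with limma-voom, -0.19 without those inputs and -0.12 to 0.48. Leaving out each library also gave -0.53 to 0.09 for Flt1 and -0.41 to 0.90 for Ptprb over input, -0.41 to 0.16 for Nrp1 against ONP, and between ONH and ONP -0.31 to 0.14 for Tek and -0.14 to 0.70 for Flt4.

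Whether retina IP libraries pair by number with the others is not given in the sources used here. For input, ONH and ONP, 4, 1 and 1 of 6 same-numbered pairs correlated over 0.1. Of these 6, 3, 1 and 1 correlated best with their own number. Such values do not settle whether retina IP and input are paired. The replicate block gave 0, 3 and 3 members called there, with 0, 4317 and 4280 genes. Vegfc and Nrp1 against ONP were 0.08 and 0.03 with it, from -0.64 and -0.16. In ONH against ONP, where the numbers pair, the block gave 0 members and 1288 genes, and no member's call changed.

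The limits are few libraries, 1 bridging library per nerve region, and low counts of Angpt4 in nerve and of Vegfc, Tek and Tie1 in retina.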
